A study of Mus musculus with 21 samples.

Results

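Txnip and Arrdc4, the 2 glucose-responsive alpha-arrestins, and Mlx and Mlxip, which encode the transcription factor pair known to drive them, are 4 of the 24263 gene symbols in a count table of 21 RNA sequencing libraries from 2 mouse cell lines. They were taken by symbol, and all 4 were selected on their levels in these same groups, so their differences are given as a description with SD or SE and without a test. The libraries of 1C11NE cells, which are 1C11 stem cells of strain 129 kept for 12 days in dibutyryl cAMP, dimethyl sulfoxide and 1-methyl-1-cyclohexanecarboxylic acid, fell into 5 groups of 3. ACR-CM cells received medium conditioned by BV2 microglia that had been exposed to 1 mM acrylamide. PBS-CM+ACR cells received medium conditioned by vehicle-exposed BV2 microglia with 1 mM acrylamide added, and PBS-CM cells received that medium alone. ACR cells received 1 mM acrylamide, a reactive vinyl monomer toxic to nerve cells, and PBS cells the vehicle, phosphate-buffered saline. BV2_ACR and BV2_PBS, 3 libraries each, are BV2 cells, a microglial line of strain C57BL/6, with 1 mM acrylamide or vehicle. All exposures lasted 24 h.

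Each line is 1 cell line, and nothing in the labels says that replicates came from separate cultures, so errors and p-values reflect only how far these libraries differ from each other, possibly for technical reasons. The labels name DMEM for 1C11 cells and DMEM/F12 for BV2 cells, give no glucose content for either, and do not give the amount of acrylamide that the ACR-CM medium still held. Conditioning by microglia and a difference in base medium therefore cannot be told apart in PBS-CM against PBS. In whole-culture RNA, fewer cells of a type and less RNA per cell cannot be told apart either.

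TXNIP, the thioredoxin-interacting protein, binds thioredoxin and blocks its reducing activity, and it promotes the endocytosis of glucose transporters. ARRDC4 is its close relative among the alpha-arrestins and also limits glucose uptake. Both genes are textbook targets of MondoA, encoded by Mlxip, which senses glucose 6-phosphate, moves to the nucleus and binds DNA as a dimer with MLX at carbohydrate response elements, pairs of E-box-like sites. Rising glucose 6-phosphate thereby raises transcripts that restrain further glucose uptake.

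The proximal promoters of the 2 arrestin genes are shown because the response element that this pathway is known for lies in such a window. The sequences are the 250 bases before the annotated start, on the gene's strand, from RefSeq on GRCm38.p6. Capitals mark the CCAAT box (CCAAT, or ATTGG where it lies on the other strand), the E box CACGTG, and a loose form of the carbohydrate response element, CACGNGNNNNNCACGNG. Both strands were searched, and each E box also reads as CACGNG, the repeated site of that element. The Txnip window is chr3:96557707-96557956 on the plus strand and the Arrdc4 window is chr7:68749239-68749488 on the minus strand.
Txnip: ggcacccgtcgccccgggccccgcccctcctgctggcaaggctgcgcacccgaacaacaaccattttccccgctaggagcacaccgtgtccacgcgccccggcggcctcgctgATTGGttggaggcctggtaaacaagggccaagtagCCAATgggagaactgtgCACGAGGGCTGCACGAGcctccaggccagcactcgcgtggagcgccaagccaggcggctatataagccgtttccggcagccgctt
Arrdc4: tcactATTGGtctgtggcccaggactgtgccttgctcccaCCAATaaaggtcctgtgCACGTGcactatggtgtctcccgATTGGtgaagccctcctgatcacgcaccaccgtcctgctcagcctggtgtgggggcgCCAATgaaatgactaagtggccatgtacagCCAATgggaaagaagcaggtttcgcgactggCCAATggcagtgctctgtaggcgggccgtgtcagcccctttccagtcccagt

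The Txnip window held 1 match to the loose element, from base -85 to base -69 before the start, with 4 copies of CACGNG and 2 CCAAT boxes in all. The loose form was written with this promoter in view, so the match there is a description. It was found in 15 of 32851 RefSeq promoters of the same length, or 0.0457%. The Arrdc4 window held no match to the loose form. It held 1 E box, from base -193 to base -188, a motif in 6.02% of those promoters, and 6 CCAAT boxes, where 33.8% of promoters held at least 1 and 0.84% at least 4. The Mlx window held 1 E box and 2 CCAAT boxes and the Mlxip window 2 CCAAT boxes, and 2 or more of these boxes were found in 10.1% of promoters. CACGNG alone was found in 23.5% of promoters. A match to these letters is not a binding site, and a missing match says nothing on binding outside the window.

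Library totals ran from 2762287 counts (PBS-CM+ACR replicate 1) to 7391991 (PBS replicate 2), and levels are CPM, counts brought to a common library total with TMM factors (trimmed mean of M-values) over all 21 libraries. The members were counted 285 to 2011 times a library for Txnip, 72 to 332 for Arrdc4, 106 to 325 for Mlx and 33 to 288 for Mlxip, and all 4 passed the filter on low counts in both lines. Replicate 1 of PBS-CM and replicate 3 of PBS-CM+ACR stood apart. On the first principal component of the 15 libraries of 1C11NE they lay at -27.4 and -18.01, among the libraries without conditioned medium, while the remaining libraries with conditioned medium had scores of 14.4 to 41.1. Ribosomal protein transcripts made up 7.54% and 8.43% of the counts in those 2 libraries, against 8.91 to 14.4% in the others with conditioned medium and 6.09 to 9.90% in ACR and PBS. Of 19 microglial markers, 18 were in the table, and their summed level was 93.2 to 113 CPM in ACR-CM, 79.8 to 104 in PBS-CM+ACR, 71.4 to 86.2 in PBS-CM, 76.5 to 86.4 in ACR and 61.6 to 68.7 in PBS, against 5281 to 6011 CPM in BV2 libraries. The sums of PBS-CM and of ACR, which had no conditioned medium, overlapped, and both lay above PBS. The part of the higher sums in the conditioned-medium results was not tested. Aif1, Ptprc, Spi1 and the 3 complement C1q genes were at 0 counts in every 1C11NE library. Fcer1g and Ctss, at 403 and 1783 CPM by library totals in BV2_PBS, were at 0 counts in all ACR and PBS libraries. Both were counted in at least 1 library of each group with conditioned medium. Tyrobp and Laptm5 were also at 0 in ACR and PBS. Tyrobp was counted in PBS-CM and PBS-CM+ACR, and Laptm5 in PBS-CM and ACR-CM. The part of these counts in the conditioned-medium results was not tested. For the 15 noradrenergic neuronal markers analysed here, sums were 21.8 to 32.8 CPM in 1C11NE and 19.7 to 29.1 CPM in BV2 libraries. The make-up of these sums differed. By library totals, Eno2 stood at 18.7 CPM in BV2_PBS and 4.91 CPM in PBS, and Syp was also higher in BV2_PBS. Map2, at 8.32 CPM in PBS, Tubb3 (2.61) and Gap43 (1.16) were at 0 in BV2_PBS. Gata3 stood at 7.15 CPM in PBS and 1.46 CPM in BV2_PBS. Map2 was the highest in PBS, so the labelled neuronal type was not backed by high levels of these markers.

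In 1C11NE cells exposed to acrylamide, both arrestin transcripts were lower than with vehicle. In BV2 cells Txnip was lower after TMM scaling, while the Arrdc4 libraries overlapped. Txnip stood at 99.5, 85.8 and 108.5 CPM in ACR, against 174.5, 159.5 and 158.0 CPM in PBS. The groups did not overlap, and every ACR library lay below every PBS library. The fitted log2 difference was -0.76 ± 0.18 (SE, n = 3 per group), a level 1.69 times higher in PBS. Arrdc4 stood at 17.96, 19.1 and 17.3 CPM in ACR, against 22.7, 24.5 and 26.7 CPM in PBS. These groups did not overlap either, and the log2 difference was -0.45 ± 0.16. Over all genes, 9.91% had ACR libraries entirely below PBS libraries.

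**Figure D1:**
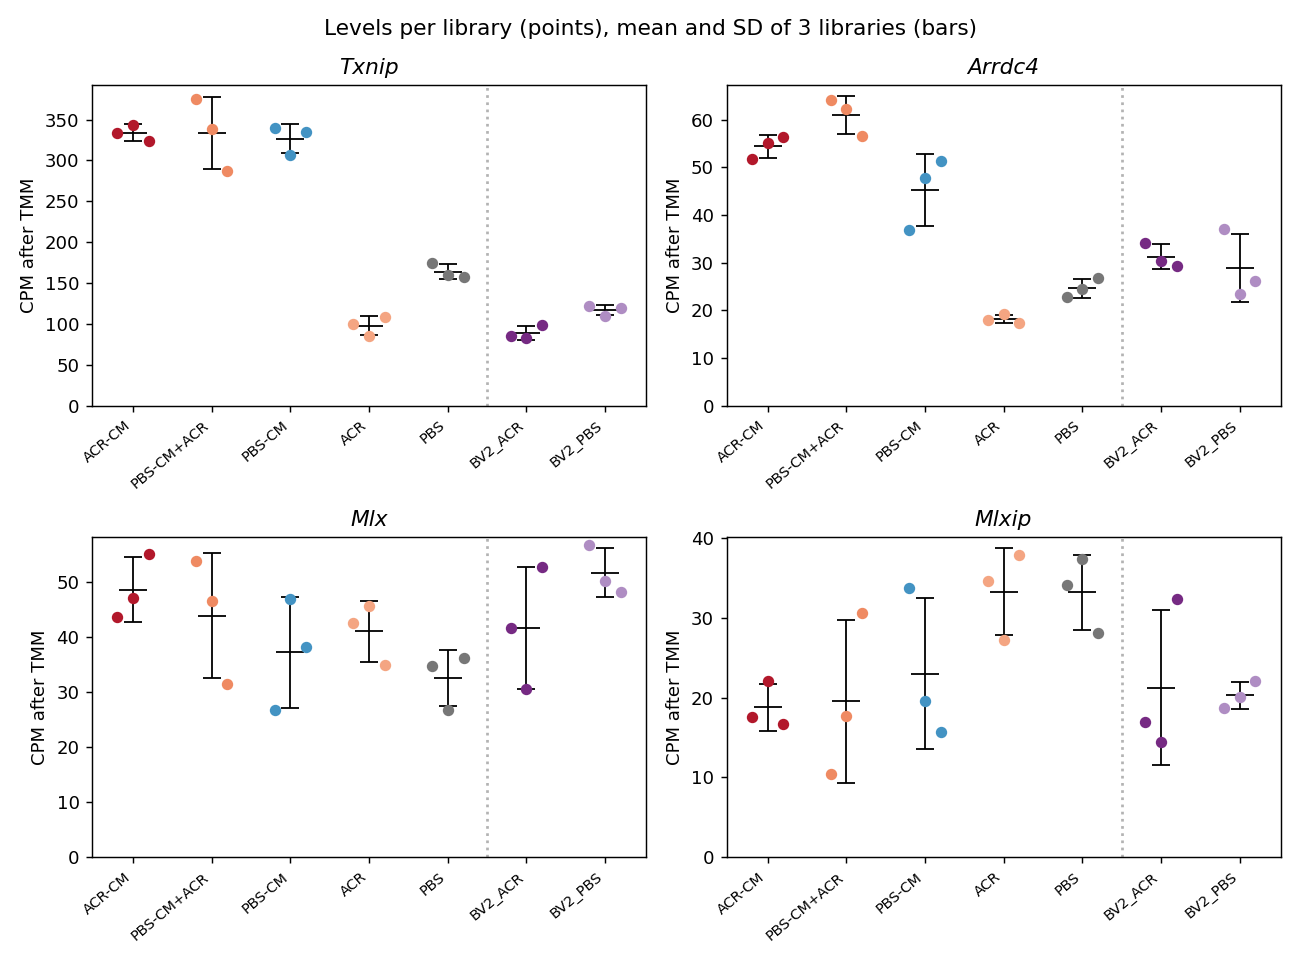
CPM after TMM (vertical axis, from 0) of Txnip, Arrdc4, Mlx and Mlxip in each of the 21 libraries, by group. Points are libraries and bars the mean and SD of 3; Txnip lies between 287.4 and 375.0 CPM in the groups with conditioned medium, against at most 174.5 CPM in any other group.

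Of the 6 comparisons, the log2 difference of both arrestins was largest between 1C11NE cells with vehicle-conditioned medium and cells without it, with higher levels in PBS-CM. Txnip stood at 339.5, 306.2 and 334.4 CPM in PBS-CM, against 174.5, 159.5 and 158.0 CPM in PBS. All PBS-CM libraries were above all PBS libraries, and the mean was 327 ± 17.9 CPM in PBS-CM and 164 ± 9.10 CPM in PBS (SD, n = 3 each). The log2 difference was 0.99 ± 0.18. Arrdc4 stood at 36.8, 47.8 and 51.3 CPM in PBS-CM, with a log2 difference of 0.88 ± 0.16 and again no overlap with PBS. The lowest PBS-CM value of Arrdc4 came from replicate 1, 1 of the 2 libraries that stood apart, whereas Txnip was highest in that library. With those 2 libraries left out the differences were 0.96 for Txnip and 1.01 for Arrdc4. PBS-CM libraries lay entirely above PBS libraries for 13.7% of all genes. The PBS libraries are shared by this comparison and by that of ACR with PBS. Txnip in BV2_PBS cells, of the line and exposure that conditioned this medium, was lower than in PBS-CM, at 121.3, 109.7 and 119.1 CPM. The labels do not say that these cultures supplied the medium.

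With acrylamide added to conditioned medium, the Txnip libraries overlapped those with conditioned medium alone, while every Arrdc4 library was higher. Txnip stood at 375.0, 338.3 and 287.4 CPM in PBS-CM+ACR, overlapping PBS-CM on both sides, with a log2 difference of 0.00 ± 0.18. Without the 2 libraries that stood apart it was 0.14. Arrdc4 stood at 64.0, 62.3 and 56.6 CPM in PBS-CM+ACR, all above PBS-CM. Its log2 difference was 0.40 ± 0.15, and 0.34 without those libraries. The share of all genes with PBS-CM+ACR entirely above PBS-CM was 5.34%.

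Medium from acrylamide-exposed microglia gave a like picture. Txnip stood at 334.2, 344.0 and 324.0 CPM in ACR-CM, within the range of PBS-CM+ACR and overlapping PBS-CM, with a log2 difference of 0.03 ± 0.18 from PBS-CM. Arrdc4 stood at 51.7, 55.1 and 56.3 CPM in ACR-CM, just above the highest PBS-CM library. Its log2 difference from PBS-CM was 0.26 ± 0.15, and 0.12 without the 2 libraries that stood apart. Of all genes, 10.1% had ACR-CM entirely above PBS-CM. Both comparisons with PBS-CM rest on the same 3 PBS-CM libraries. Between ACR-CM and PBS-CM+ACR, Txnip overlapped (0.03 ± 0.18), while the highest ACR-CM library of Arrdc4, at 56.3 CPM, lay just under the lowest PBS-CM+ACR library, at 56.6 CPM (log2 difference -0.14 ± 0.15, smaller than its error). Of all genes, 4.47% had ACR-CM entirely below PBS-CM+ACR.

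The acrylamide difference in conditioned medium minus that in plain medium was 0.76 ± 0.25 for Txnip and 0.85 ± 0.22 for Arrdc4 on the log2 scale. Without the 2 libraries that stood apart these values were 0.90 and 0.78. They were -0.12 ± 0.32 for Mlx and -0.24 ± 0.43 for Mlxip. Of all 12550 genes, 0% were called by edgeR for this interaction at an adjusted p below 0.05. At an unadjusted p under 0.05 there were 347 of the 12550 genes. That is below the share of 0.05 that this threshold passes where no gene differs. DESeq2 called 3 and limma-voom 0.

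**Figure D2:**
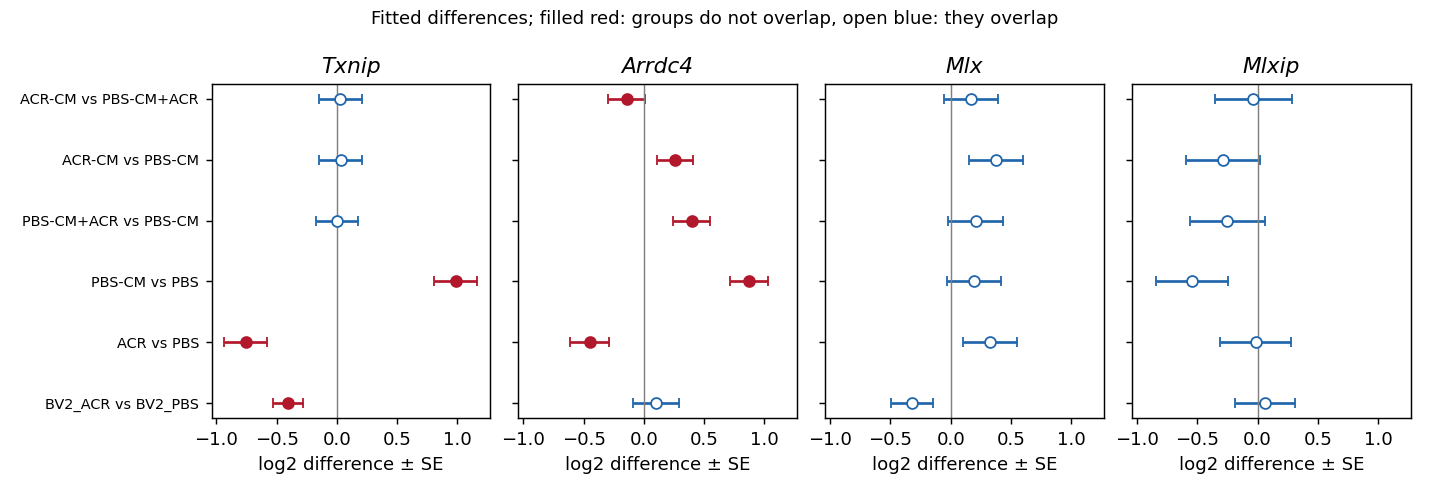
Fitted log2 difference with its SE (horizontal axis) of each member in 6 comparisons, tested condition against its control. Filled red points are comparisons whose libraries do not overlap, which for Mlx and Mlxip is none; Txnip is near 0 between the groups with conditioned medium, while Arrdc4 is at 0.40 and 0.26 against PBS-CM.

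In BV2 microglia, Txnip stood at 85.8, 82.4 and 98.6 CPM in BV2_ACR, against 121.3, 109.7 and 119.1 CPM in BV2_PBS. After TMM the groups did not overlap, as was so in the lower direction for 16.3% of all genes. The log2 difference was -0.40 ± 0.13. Ribosomal protein transcripts took 14.1 to 17.0% of counts in BV2_ACR and 20.2 to 22.6% in BV2_PBS, and scaling by library totals in place of TMM moved the median of all genes by 0.25. Under that scaling the Txnip difference was -0.15, and the groups overlapped. Arrdc4 did not follow Txnip, at 34.2, 30.4 and 29.3 CPM in BV2_ACR and 37.0, 23.4 and 26.2 CPM in BV2_PBS. These groups overlapped (log2 difference 0.10 ± 0.19), and BV2_PBS replicate 1 was the highest library of all 6. The difference was 0.32 without that library, -0.017 without BV2_PBS replicate 2 and 0.35 when scaled by library totals, so its sign was not settled. The acrylamide difference in BV2 minus that in 1C11NE was 0.35 ± 0.22 for Txnip and 0.55 ± 0.24 for Arrdc4, and 0.567% of 13569 genes were called for this interaction.

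Mlx, the shared dimer partner, overlapped in every comparison. It stood at 42.7, 45.7 and 34.9 CPM in ACR, against 34.7, 26.7 and 36.2 CPM in PBS, a log2 difference of 0.33 ± 0.23. In PBS-CM it stood at 26.7, 46.9 and 38.2 CPM, 0.19 ± 0.23 from PBS. The values were 43.7, 47.2 and 55.2 CPM in ACR-CM and 53.9, 46.5 and 31.5 CPM in PBS-CM+ACR, with log2 differences from PBS-CM of 0.38 ± 0.22 and 0.21 ± 0.23. Without the 2 libraries that stood apart, these became 0.18 and 0.22, and the difference of PBS-CM from PBS became 0.39. Leaving out PBS-CM replicate 2 alone brought that last value to -0.03. In BV2_ACR Mlx stood at 41.7, 30.6 and 52.8 CPM, against 56.8, 50.3 and 48.2 CPM in BV2_PBS, with a log2 difference of -0.32 ± 0.18 and overlap. That value was -0.06 when scaled by library totals, and between -0.51 and -0.13 with 1 library left out. The difference in BV2 minus that in 1C11NE was -0.65 ± 0.31.

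Mlxip, which encodes the glucose-sensing partner MondoA, also overlapped in every comparison. It stood at 34.6, 27.3 and 37.9 CPM in ACR, against 34.1, 37.4 and 28.1 CPM in PBS (log2 difference -0.02 ± 0.30). Groups with conditioned medium had lower means, with 17.6, 22.1 and 16.6 CPM in ACR-CM, 10.5, 17.6 and 30.6 CPM in PBS-CM+ACR and 33.7, 19.5 and 15.7 CPM in PBS-CM. The difference between PBS-CM and PBS was -0.55 ± 0.30. The 2 high values, 33.7 and 30.6 CPM, came from the 2 libraries that stood apart, and without them that difference was -0.91. The differences from PBS-CM were -0.29 ± 0.31 in ACR-CM and -0.25 ± 0.31 in PBS-CM+ACR, and 0.08 and -0.30 without those libraries. In the same 2 libraries Mlx was at its lowest in its group, at 26.7 and 31.5 CPM. Their ribosomal protein share, 7.54% and 8.43%, was also the lowest of its group, and its part in the Mlx and Mlxip values was not tested. In BV2 cells Mlxip stood at 17.0, 14.5 and 32.4 CPM in BV2_ACR, against 18.6, 20.1 and 22.0 CPM in BV2_PBS, a log2 difference of 0.06 ± 0.25. It was -0.36 without BV2_ACR replicate 3, the highest library, and up to 0.28 without another.

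**Figure D3:**
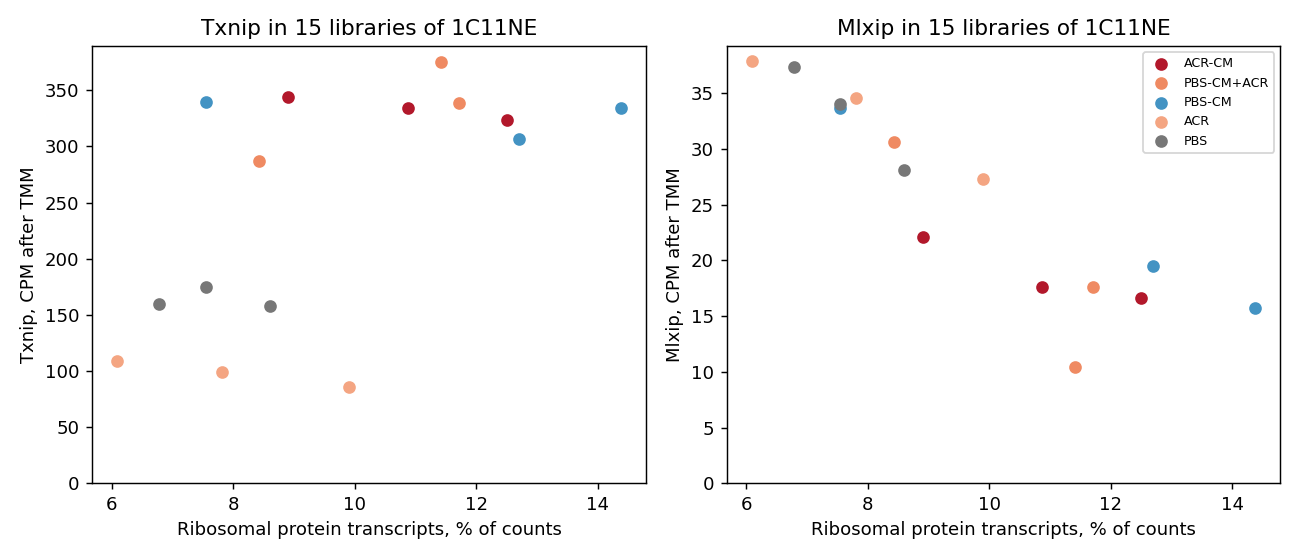
Level of Txnip (left) and Mlxip (right), in CPM after TMM, against the share of counts from ribosomal protein genes in the 15 libraries of 1C11NE, coloured by group. Mlxip is lower where that share is higher, with 37.9 CPM at 6.09% and 15.7 CPM at 14.4%, while Txnip is above 287 CPM in every library with conditioned medium (shares of 7.54 to 14.4%) and below 175 CPM in every library without it (6.09 to 9.90%).

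Mlxipl, which encodes ChREBP, the other glucose-sensing partner of MLX, had at most 2 counts in a library and 7 in all 21, so Mlxip was the partner measured in both lines. Per kilobase of the longest protein-coding transcript in GENCODE M21, the level of Txnip was 118 CPM in ACR-CM, 118 in PBS-CM+ACR, 116 in PBS-CM, 34.6 in ACR and 58.0 in PBS. On the same scale Arrdc4 was at 4.65 in ACR and 6.31 in PBS, and between 11.6 and 15.6 with conditioned medium. Txnip was thus the more abundant arrestin transcript per length in every group. Mlx lay between 16.6 and 26.3 CPM per kilobase and Mlxip between 2.57 and 4.55 over the 7 groups. These values assume even coverage along the transcript, and the library protocol, which captures poly(A) ends and then fragments, was not checked for it.

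Ordered by mean CPM, Txnip was lowest in BV2_ACR and ACR, which overlapped, then higher in BV2_PBS and in PBS, each without overlap with its neighbour, and highest in PBS-CM, PBS-CM+ACR and ACR-CM, which overlapped. Arrdc4 was lowest in ACR, then PBS, BV2_PBS and BV2_ACR, which overlapped as neighbours. PBS-CM, ACR-CM and PBS-CM+ACR followed, each clear of the next by a narrow gap, from 51.3 to 51.7 CPM and from 56.3 to 56.6 CPM. PBS-CM overlapped BV2_PBS, which was not its neighbour, with a lowest library at 36.8 CPM against a highest at 37.0 CPM. All neighbours in the order of Mlx and of Mlxip overlapped. The place of BV2 groups among the 1C11NE groups depends on the scaling. The log2 ratio of mean CPM of BV2_PBS to PBS was -0.49 for Txnip and 0.23 for Arrdc4 under TMM, and -1.13 and -0.41 by library totals, so that of Arrdc4 changes sign. For Mlx it was 0.67 under TMM and 0.02 by totals, and for Mlxip -0.71 and -1.34.

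Pearson's r of the log2 CPM of Txnip and Arrdc4 was 0.83 over the 6 libraries of ACR and PBS, which hold the difference between those groups, 0.17 over the 9 libraries of the 3 groups with conditioned medium and -0.20 over the 6 BV2 libraries of 2 groups, so each r mixes differences within and between groups. The ratio of Txnip to Arrdc4 counts, which needs no scaling between libraries, was 2.51, 2.71 and 3.36 in BV2_ACR, against 3.28, 4.69 and 4.55 in BV2_PBS. It was 5.54, 4.48 and 6.26 in ACR, against 7.68, 6.50 and 5.92 in PBS, and in both of these comparisons the groups overlapped. In conditioned medium it was 6.47, 6.24 and 5.75 in ACR-CM and 5.86, 5.43 and 5.08 in PBS-CM+ACR, against 9.23, 6.40 and 6.52 in PBS-CM. PBS-CM+ACR lay entirely below PBS-CM, while ACR-CM overlapped it, and the highest ratio was that of PBS-CM replicate 1, a library that stood apart.

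**Figure D4:**
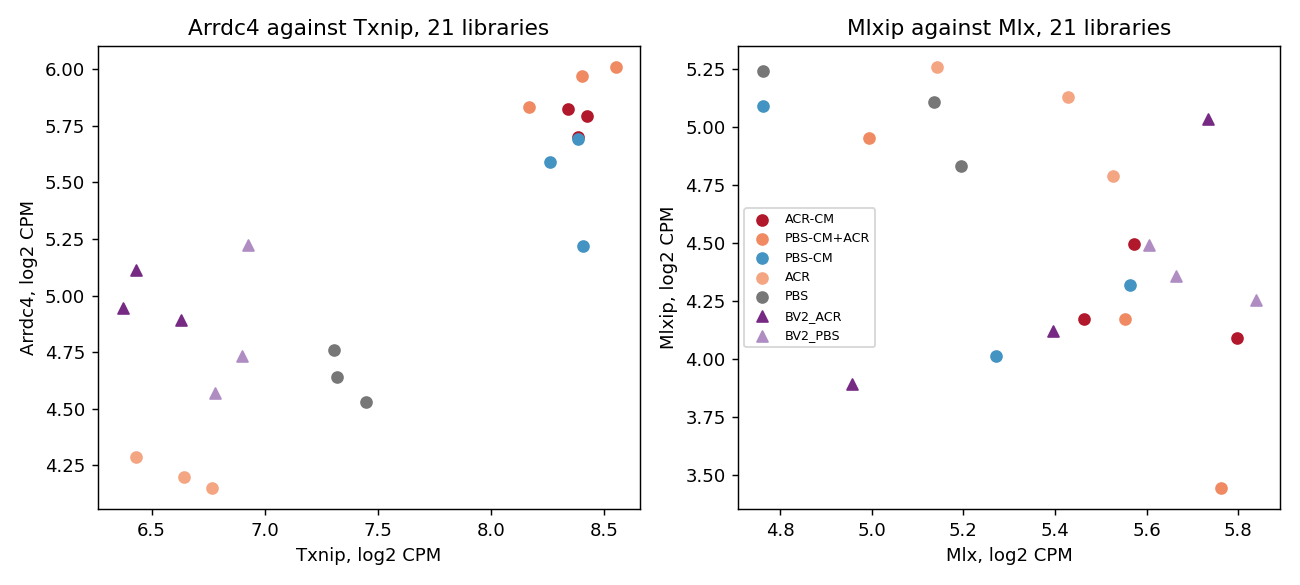
Arrdc4 against Txnip (left) and Mlxip against Mlx (right), log2 CPM on all axes, 1 point per library, circles for 1C11NE and triangles for BV2. The 9 libraries with conditioned medium form a cluster at high Txnip and Arrdc4, apart from the ACR and PBS libraries, while no such cluster appears for Mlx and Mlxip.

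Across the 15 libraries of 1C11NE, the 5 genes most like Txnip among 6356 with a mean of at least 20 CPM were Tgfbi (r = 0.98), which encodes a secreted matrix protein induced by TGF-beta, Id2 (0.97), an inhibitor of basic helix-loop-helix factors, Efemp2 (0.95), an elastic fibre protein, Arrdc4 (0.95) and Id1 (0.94). Those most like Arrdc4 were Id1 (0.98), the noncoding host transcript Mir22hg (0.96), the metalloproteinase inhibitor Timp1 (0.96), Id3 (0.96) and the ADP-ribosyltransferase gene Tiparp (0.95), with Txnip in the next place. These r values are a description, since the libraries share groups and fall into clusters with and without conditioned medium. Tgfbi, for example, stood at 46.8 ± 1.51 CPM in ACR-CM, 50.6 ± 8.10 in PBS-CM+ACR, 49.9 ± 3.86 in PBS-CM, 17.1 ± 0.82 in ACR and 27.3 ± 4.29 in PBS (SD, n = 3). Id1 stood at 328 ± 29.1 CPM in ACR-CM, 330 ± 22.2 in PBS-CM+ACR, 270 ± 56.8 in PBS-CM, 39.6 ± 4.93 in ACR and 48.8 ± 2.60 in PBS. Mlx (r = 0.22) and Mlxip (-0.68) were not among the genes like Txnip.

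Over the 6 BV2 libraries the genes most like Txnip among 5767 were Alyref, an mRNA export adaptor, Dimt1, a ribosomal RNA methyltransferase, Armc7, Dohh, which modifies a translation factor, and Rassf1, with r between 0.99 and 1.00. Alyref stood at 64.7 ± 6.45 CPM in BV2_ACR and 82.9 ± 3.42 CPM in BV2_PBS (SD, n = 3 each). Those most like Arrdc4 were Thap11, Nploc4, Fbxw11, Sap30bp and Tram1, with r between 0.95 and 0.96. These r values rest on 6 libraries in 2 groups.

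The wider pathway was described with 6 lists of 70 distinct genes. Of these, 53 passed the filter on low counts in 1C11NE and 49 in BV2, and each was tested by edgeR's quasi-likelihood method, with Benjamini-Hochberg adjustment over all genes. Txnrd1, the thioredoxin reductase that recharges the thioredoxin bound by TXNIP, stood at 159.2, 150.4 and 151.1 CPM in ACR, against 66.0, 61.3 and 68.4 CPM in PBS. It was the 1 list gene of 53 called in this comparison, where 1.18% of all genes were called, and rose by 1.22 ± 0.16 on the log2 scale (edgeR adjusted p = 0.000419). In the list of TXNIP partners and turnover genes, 1 of 15 tested rose and 0 fell, with a median log2 difference of -0.09, against 0.00 over all genes. Txn1, which encodes thioredoxin itself, stood at 964.5, 1281 and 649.5 CPM in ACR, against 603.3, 534.2 and 629.3 CPM in PBS, and was not called (0.70 ± 0.33, edgeR adjusted p = 0.405). Arrdc3, another alpha-arrestin, which acts on adrenergic receptors, was not called and overlapped at 117.6, 93.5 and 141.9 CPM in ACR and 175.3, 191.7 and 116.7 CPM in PBS (-0.47 ± 0.30, edgeR adjusted p = 0.605). The other lists had 0 of 5 other arrestins, 0 of 8 genes of the MLX and MAX network, 0 of 8 for glucose uptake and phosphorylation, 0 of 9 reported MondoA or ChREBP targets and 0 of 9 other factors reported at Txnip called by edgeR, with 0, 0, 1, 3 and 1 at an unadjusted p under 0.05.

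In conditioned medium without acrylamide, 1 list gene rose and 2 fell of 53, where 4.55% of all genes were called. Klf10, a zinc-finger factor that is a target of glucose-sensing MLX dimers in liver, stood at 50.9, 41.8 and 37.7 CPM in PBS-CM, against 19.9, 27.4 and 22.4 CPM in PBS, and rose by 0.89 ± 0.19 (edgeR adjusted p = 0.017). It was the 1 called of 9 reported targets, whose median was -0.14, against 0.00 over all genes. The call ended without any 1 of the 3 PBS libraries or PBS-CM replicate 2, and with 6 libraries fitted alone, at adjusted p from 0.0502 to 0.128. G6pdx, the entry enzyme of the pentose phosphate pathway, stood at 14.3, 12.2 and 15.4 CPM in PBS-CM, against 25.6, 24.1 and 27.3 CPM in PBS, and fell by 0.89 on the log2 scale (SE 0.17, edgeR adjusted p = 0.00794), with an adjusted p of 0.054 without PBS-CM replicate 2. Prkaa1, a catalytic subunit of the energy sensor AMPK, which phosphorylates TXNIP, stood at 34.5 ± 4.49 CPM in PBS-CM and 51.8 ± 0.74 CPM in PBS (-0.59 ± 0.14, edgeR adjusted p = 0.0244). Its call ended in 7 alternatives, among them leaving out each PBS library or PBS-CM replicate 2 or 3, at adjusted p from 0.06 to 0.122. Txn1 (0.61 ± 0.32, adjusted p = 0.248) and Arrdc3 (-0.22 ± 0.30, adjusted p = 0.67) were not called by edgeR. Without the 2 libraries that stood apart, Txn1 was called by edgeR, at 0.84 and an adjusted p of 0.0169. In that fit 4479 genes were called, against 571 in the main fit, so calls were far more common there.

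Against PBS-CM, 2 of 53 list genes rose in PBS-CM+ACR, where 0.375% of all genes were called, and 3 of 53 rose in ACR-CM, where 0.924% were called. Txnrd1 stood at 153.9, 140.1 and 173.3 CPM in ACR-CM and 144.6, 151.5 and 135.6 CPM in PBS-CM+ACR, against 62.6, 72.1 and 65.4 CPM in PBS-CM. It rose by 1.22 ± 0.16 in ACR-CM (edgeR adjusted p = 0.000974) and by 1.08 ± 0.16 in PBS-CM+ACR (adjusted p = 0.00452). These calls ended with the 6 compared libraries fitted alone, at adjusted p of 0.0519 and 0.369, as did that of G6pdx in ACR-CM, at 0.0519. G6pdx stood at 31.1, 28.1 and 31.1 CPM in ACR-CM and 32.0, 24.4 and 21.9 CPM in PBS-CM+ACR, against 14.3, 12.2 and 15.4 CPM in PBS-CM. It rose by 1.11 ± 0.17 in ACR-CM (edgeR adjusted p = 0.00398) and by 0.87 ± 0.17 in PBS-CM+ACR (adjusted p = 0.0372). The second call ended in 7 of its alternatives, among them leaving out any 1 PBS-CM library or PBS-CM+ACR replicate 1 or 2, at adjusted p from 0.0608 to 0.575.

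Fasn, the fatty acid synthase, stood at 916.0, 1053 and 750.3 CPM in ACR-CM, against 538.8, 310.7 and 262.6 CPM in PBS-CM, and rose by 1.29 ± 0.29 (edgeR adjusted p = 0.0459). It was the 1 called of 9 reported targets, whose median was 0.23, against -0.03 over all genes. The log2 differences of these targets ran from -1.54 to 1.29. The Fasn call ended without PBS-CM replicate 2 or 3 or any 1 ACR-CM library, and with 6 libraries alone, at adjusted p from 0.0735 to 0.201. Txn1 and Arrdc3 were not called against PBS-CM, at 0.31 ± 0.32 and -0.19 ± 0.30 in ACR-CM (edgeR adjusted p of 0.724 and 0.829) and 0.38 ± 0.32 and -0.23 ± 0.30 in PBS-CM+ACR (0.823 and 0.912). Between ACR-CM and PBS-CM+ACR, 0 of 53 list genes were called by edgeR, with 0.0159% of all genes called. At an unadjusted p under 0.05 there were 688 of 12550 genes, near the share of 0.05 that this threshold passes where no gene differs. Txn1 was at -0.07 ± 0.32 and Arrdc3 at 0.04 ± 0.30 there.

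In BV2 cells, 10 of 49 list genes rose and 0 fell with acrylamide, where 16.5% of all genes were called in either direction. The list named glucose uptake and phosphorylation gave 5 of the 10, of 8 tested, with a list median of 0.55, against 0.03 over all genes. The log2 differences of its 8 tested genes ran from 0.01 to 1.17, so the rise was not shared by all. The list also holds G6pdx, G6pc3 and Gpi1, which act on glucose 6-phosphate and neither take up nor phosphorylate glucose. Hk1, a hexokinase that makes glucose 6-phosphate, stood at 17.7, 18.5 and 23.0 CPM in BV2_ACR, against 7.17, 7.14 and 11.6 CPM in BV2_PBS (1.17 ± 0.24, edgeR adjusted p = 0.00275). Slc2a6, a hexose transporter of the GLUT family, stood at 19.9, 18.5 and 27.8 CPM in BV2_ACR, against 9.18, 7.46 and 13.0 CPM in BV2_PBS (1.14 ± 0.24, adjusted p = 0.00325). G6pdx rose by 1.09 ± 0.16 (adjusted p = 0.000151) and G6pc3, a glucose 6-phosphatase, by 0.71 ± 0.23 (adjusted p = 0.0358), both by edgeR. The G6pc3 call ended with DESeq2 and without BV2_PBS replicate 2 or 3 or BV2_ACR replicate 2 or 3, at adjusted p from 0.0689 to 0.121. Slc2a6 was nearly absent from 1C11NE libraries, with at most 3 counts.

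Txnrd1 rose most in BV2 cells among the named genes, at 126.7, 142.2 and 113.7 CPM in BV2_ACR, against 29.5, 34.1 and 34.7 CPM in BV2_PBS (1.95 ± 0.15, edgeR adjusted p = 6.63e-08). Txn1 overlapped, at 2014 ± 409 CPM in BV2_ACR and 2187 ± 240 CPM in BV2_PBS (-0.13 ± 0.17, edgeR adjusted p = 0.646). Arrdc3 stood at 9.93, 6.94 and 12.6 CPM in BV2_ACR, against 4.02, 5.84 and 4.41 CPM in BV2_PBS, and rose by 1.05 ± 0.32 (edgeR adjusted p = 0.0314). It was counted only 14 to 50 times a library there, and the call ended with DESeq2 and without BV2_PBS replicate 1 or 3 or BV2_ACR replicate 1 or 3, at adjusted p from 0.0509 to 0.143. Tkt, a pentose phosphate transketolase and the 1 called of 8 reported targets, rose by 0.78 ± 0.13 (edgeR adjusted p = 0.000672). Zbtb32, a zinc-finger repressor, rose by 0.86 ± 0.20 (edgeR adjusted p = 0.00586) and was the 1 called of 10 other factors reported at Txnip. Among the MLX and MAX network 0 of 4 tested genes were called by edgeR, with 0 at an unadjusted p under 0.05.

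For neither interaction was a list gene called by edgeR, with 0 of 53 for acrylamide by conditioned medium and 0 of 57 for acrylamide by cell line. Arrdc3 differed between the lines by 1.52 ± 0.48 with an edgeR adjusted p of 0.134, and of 0.0105 when no filter on low counts was used. Txn1 differed by -0.83 ± 0.41 (edgeR adjusted p = 0.35).

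**Figure D5:**
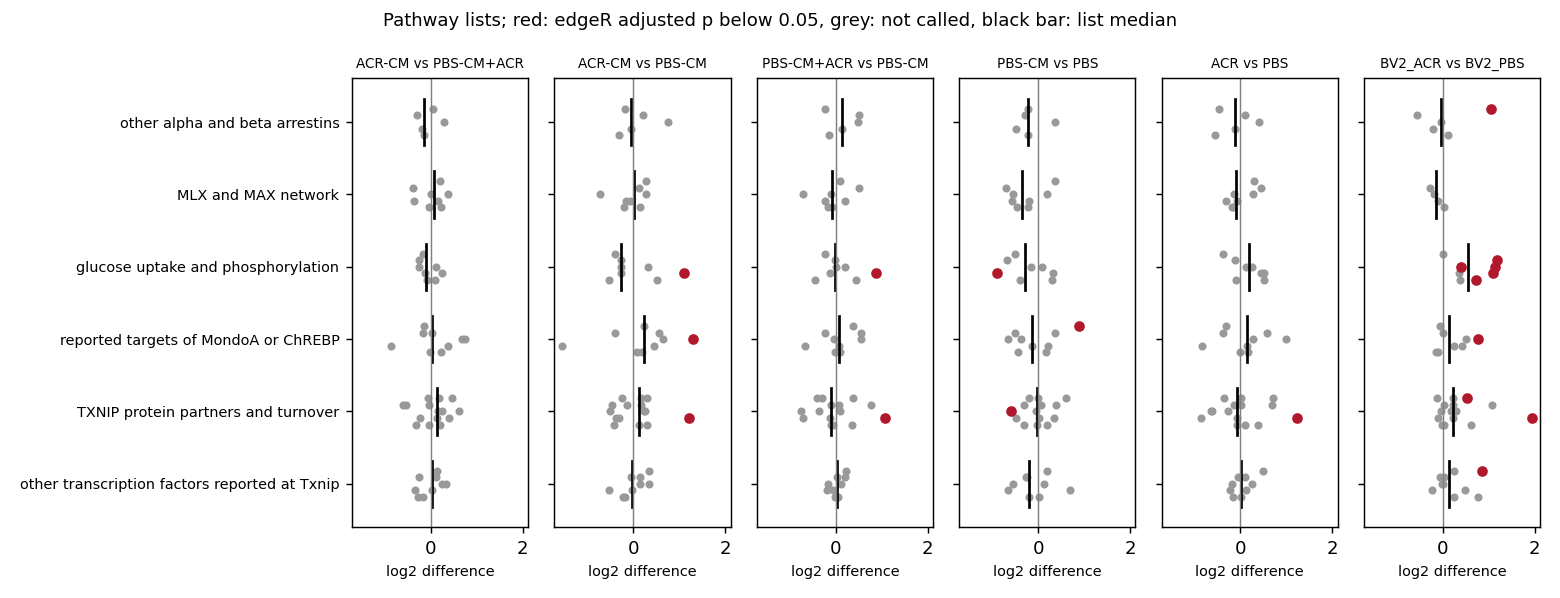
Log2 difference (horizontal axis) of each tested gene of the 6 lists (rows) in 6 comparisons (panels). Red points passed edgeR's adjusted p of 0.05, grey points did not, and black bars are list medians. In the panel of BV2_ACR against BV2_PBS, 5 of 8 genes of the list named glucose uptake and phosphorylation are red. That list also holds G6pdx, G6pc3 and Gpi1.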

How the data were processed

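Raw read counts per gene symbol, whole numbers with no normalization, were deposited by the authors for 21 libraries. Bowtie2 2.2.5 is named, per the submitters' processing notes; for the genome build, annotation, counting program and strand use the sources used here give nothing, so reads of overlapping genes or near copies cannot be told apart. The 4 genes and the lists were chosen with earlier results of these data known. Groups came from sample titles. Counts were scaled by TMM, filtered with filterByExpr and fitted with edgeR 4.0.16 (R 4.3.3, quasi-likelihood, robust) over the 15 libraries of 1C11NE (12550 genes), the 6 of BV2 (10890) or all 21 (13569, cell line interaction only), with Benjamini-Hochberg adjustment at 0.05. The fit was tested on simulated data. Log2 CPM used a prior count of 2.

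Named genes are the 4 members, the called list genes (at most 8 per comparison, by size), Arrdc3 and Txn1, and the 5 genes most like each arrestin by Pearson's r. The lists cover other arrestins, the MLX and MAX network, glucose uptake and phosphorylation, reported MondoA or ChREBP targets, TXNIP partners and turnover, and other factors reported at Txnip. Pklr and Thrsp were not analysed here. Replicates were not identical (chi-square of 2.53 to 60.6 per degree of freedom). Alternatives were DESeq2 1.42.0, limma-voom (limma 3.58.1), other scalings, no filter, the replicate number as a block, fewer libraries and each library left out.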

Additional observations from a re-analysis of the deposited data

How the results depend on the processing

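Of 484 alternative values for the 4 members, 473 moved by less than the spread between replicates and 11 moved more. The cause of those moves was not tested. Scaling by library totals gave, for Txnip, 0.14 in ACR-CM against PBS-CM, -0.15 in BV2_ACR against BV2_PBS and 0.60 for the cell line interaction, and for Arrdc4 0.79 for that interaction. By totals the log2 ratio of BV2_PBS to PBS was -1.13 for Txnip, -0.41 for Arrdc4, 0.024 for Mlx and -1.34 for Mlxip, a comparison added after the data were seen. Totals moved the median of all genes by 0.25 in BV2, 0.10 in ACR-CM against PBS-CM and 0.23 for the cell line interaction. With each library left out in turn, Txnip in ACR-CM against PBS-CM ranged from -0.037 to 0.063, and the cell line interaction from 0.43 to 0.78 for Arrdc4 and from -0.36 to 0.29 for Mlxip. Under all alternatives Txnip stayed between -0.83 and -0.67 and Arrdc4 between -0.51 and -0.38 in ACR against PBS, and between 0.93 and 1.01 and 0.76 and 1.01 in PBS-CM against PBS. Of 448 alternative values of named list genes, 40 lost and 2 gained their call, and none of the called ones changed sign.

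Correlations between the deviations of same-numbered libraries ran from -0.55 to 0.34 in the comparisons of 1C11NE and from 0.03 to 0.11 in BV2. Deviations were taken from group means, which forces correlations of both signs, so these values cannot settle whether libraries were paired. The replicate block gave 112 called genes in place of 148 for ACR against PBS, 309 for 571 in PBS-CM against PBS, 21 for 47 in PBS-CM+ACR against PBS-CM, 56 for 116 in ACR-CM against PBS-CM, 2355 for 1797 in BV2 and 43 for 77 in the cell line interaction. With it G6pdx in PBS-CM+ACR (adjusted p = 0.0991) and Fasn in ACR-CM (adjusted p = 0.108) were not called. In the order ACR and PBS-CM against PBS, then PBS-CM+ACR and ACR-CM against PBS-CM, no filter gave 351, 1372, 136 and 459 calls, DESeq2 gave 336, 1282, 129 and 305, and 6 libraries alone gave 362, 210, 0 and 15. ACR-CM against PBS-CM+ACR had 2 calls, 13 without a filter and 11 by DESeq2. With both libraries that stood apart left out there were 554 calls for ACR and 4479 for PBS-CM against PBS. Leaving out each library in turn gave 71 to 109 calls for ACR against PBS, 106 (without PBS-CM replicate 2) to 3233 (without PBS-CM replicate 1) for PBS-CM against PBS, 11 to 73 and 35 to 93 for PBS-CM+ACR and ACR-CM against PBS-CM, 913 to 1883 in BV2 and 25 to 100 for the cell line interaction. In BV2, totals gave 2806 calls. The cell line interaction had 182 calls by totals, 234 without a filter and 503 by DESeq2. Depth limits Mlxip most, with 33 to 288 counts a library.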
